A study of Mus musculus with 7 samples.

Results

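The genes described are the 3 D cyclins (Ccnd1, Ccnd2 and Ccnd3), the 2 kinases they activate (Cdk4 and Cdk6) and 5 inhibitors of these complexes (Cdkn1a, Cdkn1b, Cdkn2a, Cdkn2b and Cdkn2c). They were taken by gene symbol, and each of the 10 symbols matched 1 of the 49585 gene rows. RNA was sequenced from MS-1 cells, a mouse endothelial line from pancreatic islets, in 3 control libraries whose genotype is given as WT and in 4 libraries whose genotype is given as LPL overexpression. LPL is lipoprotein lipase, the enzyme that frees fatty acids from circulating triglyceride. All 7 libraries came from cells grown in DMEM. The labels do not give the vector, the species of the LPL sequence, the number of clones or whether replicates were separate cultures, so the spread between libraries may be technical. The family was chosen by its measured counts in LPL overexpression against control libraries, so its levels, fold changes and calls are descriptions, and no p-value is given for its members.

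D cyclins link growth signals to the cell cycle. They accumulate in response to mitogens, bind CDK4 or CDK6 and direct the phosphorylation of the retinoblastoma protein RB, which releases E2F transcription factors and the genes of DNA replication. INK4 inhibitors (p16, p15 and p18, from Cdkn2a, Cdkn2b and Cdkn2c) bind CDK4 and CDK6 alone, whereas CIP/KIP inhibitors (p21 from Cdkn1a and p27 from Cdkn1b) bind whole cyclin-kinase complexes, CDK2 included, and also help cyclin D and CDK4 to assemble. As background, the MS-1 line was immortalized with SV40 large T antigen, a viral protein that binds RB and p53. RNA levels do not report the activity of these kinases.

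Reads in the sense orientation summed to between 24328418 and 29210847 per library, and all 10 genes passed the filter on low counts. Lpl was at 0.101 ± 0.112 CPM in the controls and 441 ± 13.1 CPM in LPL overexpression (read counts scaled to library size, CPM, mean ± SD, n = 3 and n = 4 here and throughout), which fits the labels. Of 14 endothelial markers, 13 were tested. Their summed level was 7440.2 to 7532 CPM in the controls against 6461 to 6637 CPM with LPL overexpression. Of these, 2 rose (1 without control replicate 2 or LPL overexpression replicate 4) and 8 fell. The junction gene Pecam1 fell from 2823 ± 14.9 to 2144 ± 36.7 CPM and the VEGF receptor gene Kdr from 336 ± 5.05 to 267 ± 7.41 CPM, while Egfl7 rose from 843 ± 6.74 to 914 ± 7.88 CPM and Esam from 176 ± 2.65 to 185 ± 4.81 CPM. Of the other defining markers Cdh5 was abundant, at 997 ± 18.9 CPM in the controls and 884 ± 25.8 CPM in LPL overexpression, whereas Vwf was at 1.19 ± 0.115 CPM in the controls and 1.36 ± 0.0455 CPM in LPL overexpression and Cldn5 was below the filter. Markers of pigment cells moved with the group as well. All 12 of these were higher with LPL overexpression, their sum was 3.22 to 3.88 CPM in the controls against 1393 to 1459 CPM with LPL overexpression, and Tyrp1, Dct, Tyr, Mlana, Oca2 and Sox10 had 0 control reads. Every difference described below lies between the same groups of libraries, and the part of the pigment cell genes in it was not tested. In bulk RNA, fewer cells of a type and less RNA per cell cannot be told apart.

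For 3 of the genes the sequence in front of the start sites is shown: Cdk4, the more abundant kinase, Cdkn1a, the most abundant inhibitor, and Cdkn2a, whose 1 count covers transcripts from 2 start sites. Of the 10 genes, 8 had entries in the RefSeq promoter table (build GRCm38.p6, the build of mm10), with 12 windows of 250 bases before a start. Ccnd1 and Ccnd2 had none. Each stretch is printed 5′ to 3′ on the gene's strand, up to the first annotated exon base of the gene, with motif matches in capitals.
Cdk4, chr10:127063285-127063533, plus strand, before the start at 127063535: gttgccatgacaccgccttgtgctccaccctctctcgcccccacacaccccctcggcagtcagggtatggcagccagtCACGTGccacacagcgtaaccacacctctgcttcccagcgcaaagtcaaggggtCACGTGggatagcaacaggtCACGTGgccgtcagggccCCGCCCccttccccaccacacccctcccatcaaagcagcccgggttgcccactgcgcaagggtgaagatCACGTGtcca
Cdkn1a upstream start, chr17:29090729-29090975, plus strand, before the start at 29090979: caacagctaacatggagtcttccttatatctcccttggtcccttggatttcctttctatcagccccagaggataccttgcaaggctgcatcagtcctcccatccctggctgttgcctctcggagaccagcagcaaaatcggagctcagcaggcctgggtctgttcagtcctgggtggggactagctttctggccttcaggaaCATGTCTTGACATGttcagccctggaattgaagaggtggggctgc
Cdkn1a downstream start, chr17:29093519-29093768, plus strand, before the start at 29093769: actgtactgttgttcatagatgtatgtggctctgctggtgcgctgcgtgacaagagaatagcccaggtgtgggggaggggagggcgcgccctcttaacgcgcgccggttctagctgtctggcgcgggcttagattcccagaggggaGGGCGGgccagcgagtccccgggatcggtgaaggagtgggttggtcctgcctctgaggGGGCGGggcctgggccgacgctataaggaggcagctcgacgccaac
Cdkn2a upstream (Arf) start, chr4:89294654-89294869, minus strand, before the start at 89294619: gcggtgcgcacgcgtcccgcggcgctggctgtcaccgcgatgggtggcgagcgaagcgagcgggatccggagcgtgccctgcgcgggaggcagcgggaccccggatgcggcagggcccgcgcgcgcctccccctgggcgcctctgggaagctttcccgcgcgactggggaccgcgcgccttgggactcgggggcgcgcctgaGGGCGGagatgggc
Cdkn2a downstream (Ink4a) start, chr4:89282193-89282442, minus strand, before the start at 89282192: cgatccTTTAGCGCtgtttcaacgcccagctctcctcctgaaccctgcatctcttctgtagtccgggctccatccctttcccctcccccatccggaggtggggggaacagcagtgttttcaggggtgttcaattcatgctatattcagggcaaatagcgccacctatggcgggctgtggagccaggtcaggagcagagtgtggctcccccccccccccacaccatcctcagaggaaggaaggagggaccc

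The capitals mark every match in the printed stretches, on either strand, to 9 motifs. In Cdk4 they are 4 E-boxes (CACGTG, the core site of MYC-type factors) at -172 to -167, -118 to -113, -98 to -93 and -11 to -6 from the start, and 1 GC box (GGGCGG, or CCGCCC as read here). The E-box letters occurred in 6.02% of all 32851 windows of this length, and the GC box in 32.7%. The window in front of the upstream Cdkn1a start held a pair of CATG cores 6 bases apart, the spacing of the cores of adjacent p53 half-sites, at -48 to -35. That pair occurred in 0.49% of windows, and it was added to the search after the sequence had been seen. In front of the downstream Cdkn1a start and of the Arf start the capitals are GC boxes. In front of the Ink4a start they are 1 match to the E2F letters TTTNGCGC (1.13% of windows). The other motifs searched were CRE (TGACGTCA, 1.55% of windows), AP-1 (TGANTCA, 6.75%), the M-box core (CATGTG, 12.3%), the CCAAT box (CCAAT, 33.8%) and the TATA box (TATAAA, 12.4%). A match is a description of letters, not of binding.

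Ccnd1 was by far the most abundant member. The TPM scale also divides by a fixed length per gene, that of all its annotated exons rather than of the transcripts expressed. That length was 4709 bases for Ccnd1, 9409 for Ccnd2, 8775 for Ccnd3, 13989 for Cdk6 and 1393 for Cdkn2b. Levels compared between genes therefore depend on the annotation. On this scale Ccnd1 stood at 1810.4 ± 44.2 TPM in the controls, rank 53 among all genes, and at 1588 ± 41.1 TPM in LPL overexpression. Next in both groups came Cdkn1a, with 562 ± 13.0 and 504 ± 13.9 TPM, then Cdk4, with 392 ± 12.2 and 413 ± 6.66 TPM. Cdkn2c followed with 167 ± 0.112 and 163 ± 2.39 TPM, and Cdkn1b with 84.0 ± 1.801 and 84.9 ± 1.84 TPM.

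Below these, the order differed between the groups in 1 respect, the place of Ccnd2. In the controls Cdkn2b (56.4 ± 1.06 TPM) and Ccnd3 (36.6 ± 1.02 TPM) stood above Ccnd2 (30.5 ± 1.29 TPM). In LPL overexpression Ccnd2 (62.3 ± 2.15 TPM) stood above Cdkn2b (52.999 ± 3.75 TPM) and Ccnd3 (39.6 ± 1.35 TPM). Cdk6 was near the bottom in both, with 20.9 ± 0.813 and 17.6 ± 0.616 TPM. Cdkn2a was the lowest, with 8.48 ± 2.25 and 8.77 ± 1.17 TPM. Within each group, no pair of neighbours in this order overlapped across libraries. The spread between libraries does not cover the choice of length per gene. By CPM, which does not divide by length, Ccnd3 (98.3), Cdk6 (89.5) and Ccnd2 (88.0) stood above Cdkn2b (24.1) in the controls.

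**Figure D1:**
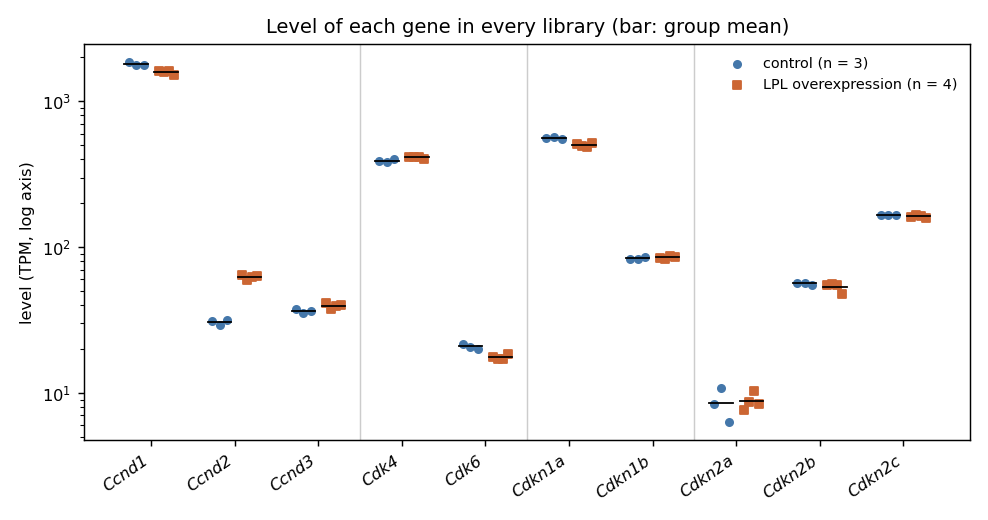
Level of each of the 10 genes in TPM (log axis) in every library, with circles for the 3 controls, squares for the 4 LPL overexpression libraries and a bar at each group mean. Ccnd1 lies highest at 1810.4 TPM in the controls, Cdkn2a lowest at 8.48 TPM, and Ccnd2 moves from 30.5 to 62.3 TPM.

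The fit across all 13639 tested genes (edgeR's quasi-likelihood test, Benjamini-Hochberg adjusted, threshold 0.05) called 5 of the 10 members, 2 higher in LPL overexpression (Ccnd2 and Ccnd3) and 3 lower (Ccnd1, Cdk6 and Cdkn1a). Over all genes 43.2% were called, 21.9% higher and 21.3% lower. The groups did not overlap in 7 of the 10, the called ones plus Cdkn2b and Cdkn2c, against 44.6% of all genes. The median log2 fold change of the members was -0.04, beside 0.00 for all genes. With upper-quartile scaling or with limma on TPM the members split into 3 higher and 3 lower, because Cdk4 was called too. Among all called genes, 50.7% were higher, a share of 61.5% with limma on log2(TPM + 0.5) and of 59.2% with upper-quartile scaling.

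Among the D cyclins, Ccnd2 was higher, Ccnd3 slightly higher and Ccnd1 lower with LPL overexpression. Ccnd2 (ENSMUSG00000000184.12, chromosome 6, 127125162 to 127152193, minus strand, mm10 here and below) was at 88.5, 84.1 and 91.4 CPM in the controls and at 181, 169, 175 and 180.2 CPM in LPL overexpression, in the order of the replicate numbers. All 4 of the latter lay far above the highest control. Its log2 fold change was 1.00 (SE 0.03), from 88.0 ± 3.70 to 176 ± 5.60 CPM, and it lay between 0.97 and 1.03 in the 14 other settings tried, each of which called it. Over all genes, 4.53% were called higher by at least 2-fold.

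Ccnd1 (ENSMUSG00000070348.5, chromosome 7, 144929931 to 144939925, minus strand), the D cyclin best known from tumours, was at 2664, 2582 and 2589.9 CPM in the controls and at 2282, 2277, 2276 and 2158 CPM in LPL overexpression. Replicate 4 was the lowest, and the groups did not overlap. On the log2 scale Ccnd1 differed by -0.22 (SE 0.03), from 2612 ± 45.4 to 2249 ± 60.2 CPM. It was called in all 14 other settings, between -0.23 and -0.19.

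Ccnd3 (ENSMUSG00000034165.16, chromosome 17, 47505051 to 47599691, plus strand) was at 100.3, 96.0 and 98.6 CPM in the controls and at 108, 100.4, 104 and 106 CPM in LPL overexpression. The groups only just failed to overlap, with replicate 2 of LPL overexpression next to control replicate 1. The log2 fold change was 0.09 (SE 0.03), from 98.3 ± 2.18 to 105 ± 3.30 CPM. Its call ended without control replicate 2 (log2 fold change 0.07) and without LPL overexpression replicate 1 (0.07).

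**Figure D2:**
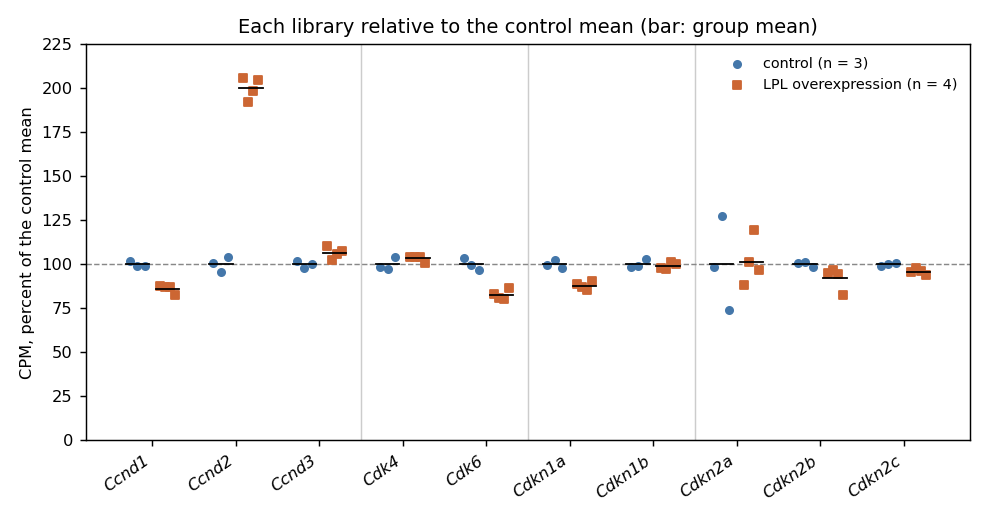
CPM of each gene in every library as a percent of that gene's control mean (dashed line at 100), with circles for controls, squares for LPL overexpression and a bar at each group mean. Ccnd2 roughly doubled, the LPL overexpression libraries of Ccnd1, Cdk6 and Cdkn1a lie below every control, and Cdkn2a, the least abundant gene, has the widest spread among controls.

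Ccnd1 dominated the summed level of the D cyclins in both groups. It made up 96.4% ± 0.0876 of the summed TPM in the controls and 94.0% ± 0.274 in LPL overexpression. The share of Ccnd2 was 1.63% ± 0.0673 against 3.69% ± 0.176, and that of Ccnd3 was 1.95% ± 0.0214 against 2.35% ± 0.0989. The ratio of Ccnd1 to Ccnd2 in TPM was 59.4 ± 2.47 in the controls and 25.5 ± 1.28 in LPL overexpression. The size of the shares and of this ratio depends on the annotated exonic lengths. In absolute terms Ccnd2 gained 31.7 TPM while the Ccnd1 level fell by 223 TPM. The sum of the 3 cyclins was 1877 ± 45.5 TPM in the controls, with a range of 1849 to 1930.0, and 1689.6 ± 40.4 TPM in LPL overexpression, with a range of 1631 to 1718.

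**Figure D3:**
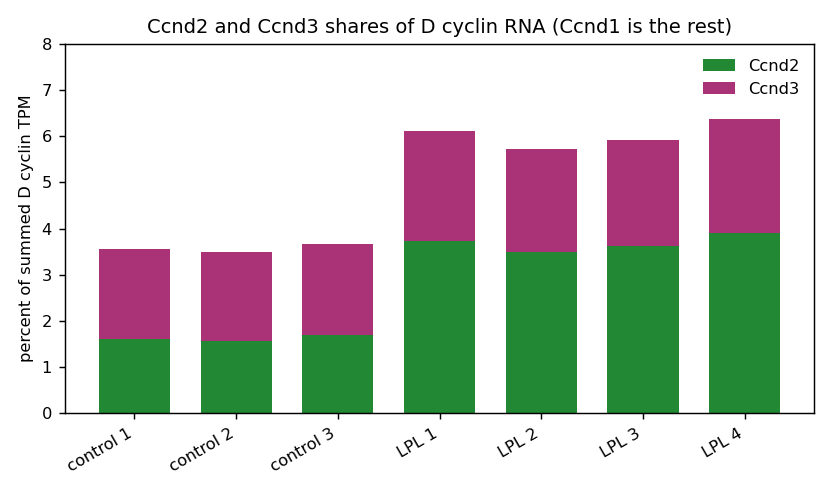
Stacked bars of the shares of Ccnd2 and Ccnd3 in the summed D cyclin TPM of each library, in percent, Ccnd1 being the rest. The Ccnd2 share averages 1.63% in the 3 controls and 3.69% in the 4 LPL overexpression libraries.

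Of the kinases, Cdk6 was lower and Cdk4 was not called. Cdk6 (ENSMUSG00000040274.11, chromosome 5, 3341485 to 3531008, plus strand) was at 92.5, 89.2 and 86.8 CPM in the controls and at 74.4, 72.4, 71.7 and 77.3 CPM in LPL overexpression. No LPL overexpression library reached the lowest control. On the log2 scale Cdk6 differed by -0.27 (SE 0.03), from 89.5 ± 2.87 to 73.9 ± 2.49 CPM, and all 14 other settings called it, between -0.30 and -0.24.

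Cdk4 (ENSMUSG00000006728.12, chromosome 10, 127063534 to 127067920, plus strand) was at 385, 380.3 and 405 CPM in the controls and at 407, 406, 406 and 393 CPM in LPL overexpression. Control replicate 3 lay among the LPL overexpression libraries, so the groups overlapped. The log2 fold change was 0.05 (SE 0.03), from 390.1 ± 13.3 to 403 ± 6.83 CPM. Cdk4 was called higher in 5 of the 14 other settings, which were upper-quartile scaling, both fits on TPM and the fits without control replicate 3 or LPL overexpression replicate 4. Of the oriented reads of Cdk4, between 7.73% and 8.87% were antisense, against at most 2.37% for the other members. Exons of Tspan31 overlap those of Cdk4 on the opposite strand. Cdk6 made up 5.06% ± 0.289 of the summed kinase TPM in the controls and 4.09% ± 0.195 in LPL overexpression.

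Of the CIP/KIP inhibitors, Cdkn1a was lower and Cdkn1b was not called. Cdkn1a (ENSMUSG00000023067.13, chromosome 17, 29090979 to 29100722, plus strand), the gene of the p53-induced inhibitor p21, was at 382, 392 and 375 CPM in the controls and at 339, 334, 326 and 348 CPM in LPL overexpression. All 4 lay below the lowest control. On the log2 scale Cdkn1a differed by -0.19 (SE 0.03), from 383 ± 8.44 to 337 ± 9.08 CPM, called in all 14 other settings, between -0.20 and -0.16. The counts do not separate transcripts of the 2 start sites printed above.

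Cdkn1b (ENSMUSG00000003031.14, chromosome 6, 134920401 to 134925513, plus strand), the gene of p27, was at 115, 116 and 121 CPM in the controls and at 115, 114, 118 and 118 CPM in LPL overexpression. The groups overlapped. The log2 fold change was -0.01 (SE 0.03), from 117 ± 3.05 to 116 ± 2.15 CPM, and it was above 0 with upper-quartile scaling and on TPM.

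None of the 3 INK4 genes was called. Cdkn2c (ENSMUSG00000028551.14, chromosome 4, 109660876 to 109667189, minus strand), the gene of p18 and the most abundant of them, was at 136, 138 and 138 CPM in the controls and at 131, 134, 132 and 129 CPM in LPL overexpression. The groups did not overlap, but the distance was small, with a log2 fold change of -0.06 (SE 0.03). Cdkn2b (ENSMUSG00000073802.4, chromosome 4, 89306289 to 89311032, minus strand), the gene of p15, was at 24.2, 24.3 and 23.7 CPM in the controls and at 22.9, 23.3, 22.8 and 19.8 CPM in LPL overexpression. Its groups did not overlap either, and replicate 4 lay apart from the other LPL overexpression libraries. On the log2 scale Cdkn2b differed by -0.12 (SE 0.05), or -0.06 without that replicate. Cdkn2b was called in 2 and Cdkn2c in 1 of the 14 other settings.

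Cdkn2a (ENSMUSG00000044303.6, chromosome 4, 89274471 to 89294653, minus strand) encodes p16Ink4a and, from the upstream start and another reading frame, the p53 activator Arf. It had 81, 107 and 59 counts in the controls and 66, 91, 92 and 82 in LPL overexpression, so it was detected in every library at a low level. Its log2 fold change of 0.01 had an SE of 0.14, the widest of the family, and ranged from -0.15 without control replicate 3 to 0.23 without control replicate 2. Mtap, a neighbour of Cdkn2a that is often lost together with it in tumours, was at 162 ± 2.5005 CPM in the controls and 157 ± 2.84 CPM in LPL overexpression and did not pass (adjusted p = 0.219 in edgeR).

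**Figure D4:**
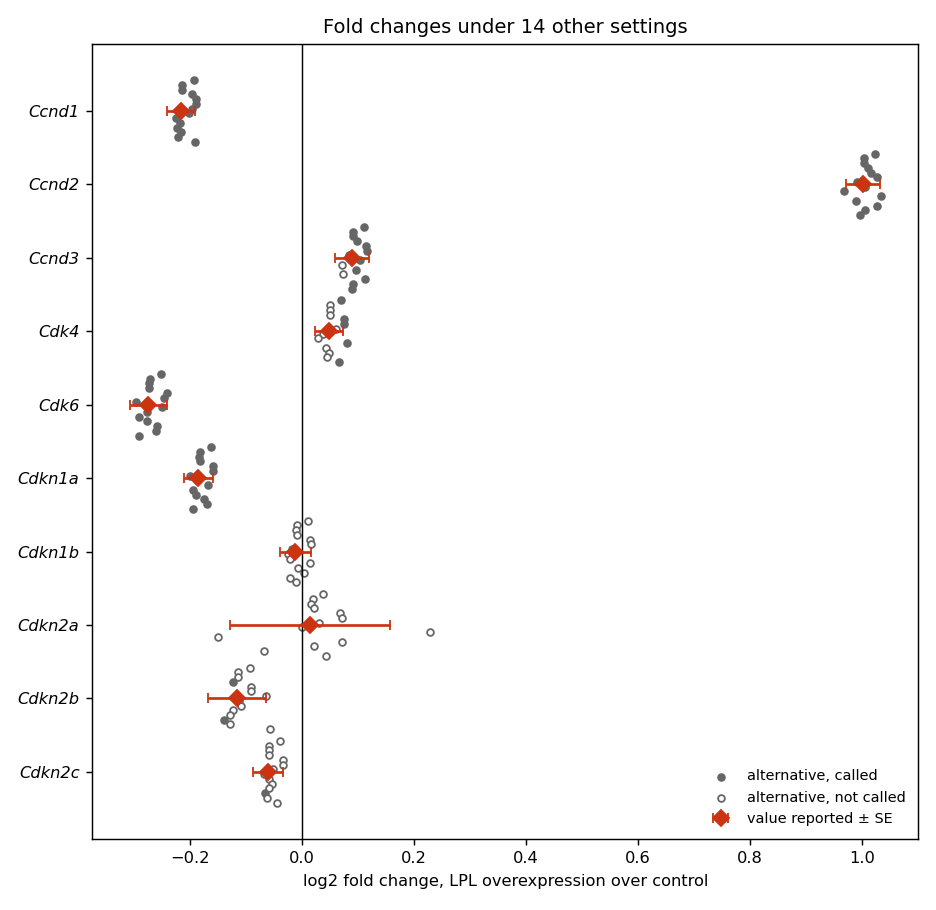
Log2 fold change of each gene, LPL overexpression over control, with a diamond for the reported value ± SE and small circles for the 14 other settings, filled where the gene was called. Ccnd2 stays near 1.00 throughout, Ccnd1, Cdk6 and Cdkn1a stay below 0, and Cdkn1b and Cdkn2a fall on both sides of 0.

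Summed by role, kinase TPM was 413 ± 11.8 in the controls and 430.1 ± 6.17 in LPL overexpression, and the ranges overlapped (402 to 425 and 421 to 435 TPM). Inhibitor TPM was 878 ± 14.5 against 813 ± 7.96, with ranges that did not overlap (862 to 891 and 804 to 822 TPM). Most of that difference lay in Cdkn1a, whose mean fell by 58.5 TPM.

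By the measure of likeness used, the genes nearest to Ccnd2 across the 7 libraries were Met, Fzd7 and Clp1, out of 10428 compared. Met, the gene of the hepatocyte growth factor receptor, differed from Ccnd2 by a root mean square of 0.0319 in row-centred log2 CPM and went from 94.7 ± 1.92 to 191 ± 3.01 CPM. Fzd7, a Wnt receptor gene, went from 8.33 ± 0.526 to 16.3 ± 0.567 CPM, and Clp1, an RNA-processing kinase gene, from 8.41 ± 0.587 to 16.8 ± 0.574 CPM. Nearest to Cdk6 were Fmn1, Ankrd52 and Carhsp1, with log2 fold changes of -0.28, -0.28 and -0.29. The difference between the groups enters this measure.

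The pathway around the family comes next, from lists in which most changes were small. Against 43.2% of all tested genes, 47.4% of other cyclins, 44.4% of other Cdk genes and 25.0% of other genes with Cdkn symbols were called. The share was 38.5% for G1/S E2F targets, 43.75% for mitosis genes and 47.4% for p53 and its targets. It was higher for pocket protein and E2F genes (76.9%), cyclin D handling (55.0%), mitogen outputs (54.5%), transcriptional regulators (64.3%) and senescence-associated genes (72.7%). Of 19 other cyclins tested, 1 rose and 8 fell (4 and 8 with upper-quartile scaling, 3 and 5 on TPM), with a median log2 fold change of -0.05. The number that rose was 2 without control replicate 3 and 3 without LPL overexpression replicate 1 or 4. Ccni, an atypical cyclin, fell from 140.2 ± 2.02 to 118 ± 3.72 CPM and Ccnf, the cyclin of an SCF ubiquitin ligase, from 174 ± 3.75 to 149.5 ± 3.65 CPM. Ccng1, a p53 target, rose from 378 ± 2.72 to 418 ± 8.62 CPM. Cyclin E carries the cycle on from cyclin D, and Ccne2 fell from 46.5 ± 0.371 to 41.0 ± 1.72 CPM. Ccne1 was at 34.7 ± 2.02 CPM in the controls and 33.8 ± 1.23 CPM in LPL overexpression (adjusted p = 0.505 in edgeR). Ccna2 was at 289 ± 2.57 CPM in the controls and 284 ± 8.48 CPM in LPL overexpression (adjusted p = 0.477 in edgeR).

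Of 18 other cyclin-dependent kinases, 4 rose and 4 fell (6 and 3 with upper-quartile scaling, 6 and 2 on TPM), with a median of -0.05. Cdk2, the partner of cyclins E and A and a target of p21 and p27, rose from 83.0 ± 2.19 to 114 ± 2.15 CPM, higher in 4 of 4 libraries (0.46 on the log2 scale, SE 0.03, edgeR adjusted p = 2.69e-18). Cdk16 rose from 120.1 ± 1.04 to 129 ± 3.02 CPM, while Cdk15, with 0 reads in the controls, was at 2.34 ± 0.340 CPM in LPL overexpression and was called higher. Cdk19 fell from 38.4 ± 1.84 to 33.6 ± 1.04 CPM and Cdk17 from 113 ± 0.928 to 102 ± 2.91 CPM. Of 4 other genes with Cdkn symbols 1 rose, Cdkn3, which encodes a CDK phosphatase, from 43.3 ± 1.66 to 47.9 ± 0.940 CPM. Without control replicate 2, 2 were higher. The 4 include Cdkn2aip, by its symbol an interacting protein rather than an inhibitor. The remaining INK4 gene, Cdkn2d, was at 45.9 ± 1.13 CPM in the controls and 46.8 ± 1.09 CPM in LPL overexpression and did not pass (adjusted p = 0.612 in edgeR). Nor did the remaining CIP/KIP gene, Cdkn1c, at 1.38 ± 0.342 CPM in the controls and 1.75 ± 0.235 CPM in LPL overexpression (adjusted p = 0.135 in edgeR).

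Downstream of the D cyclins, 3 of 13 pocket protein and E2F genes rose and 7 fell (4 and 6 with upper-quartile scaling, 2 and 2 on TPM), with a median of -0.08. Rb1 rose from 12.2 ± 0.349 to 14.1 ± 1.36 CPM (0.21 on the log2 scale, SE 0.07, edgeR adjusted p = 0.0105), with overlapping groups. That call ended in 5 of 14 other settings, with adjusted p up to 0.0659, the value with the replicate block. Rbl1 and Rbl2, the other pocket proteins, did not pass, at -0.04 (SE 0.04) and 0.10 (SE 0.05). E2f1 fell from 74.5 ± 1.02 to 68.5 ± 1.84 CPM, E2f6 from 55.3 ± 1.70 to 47.9 ± 1.496 CPM and Tfdp2, a partner of E2F, from 20.9 ± 0.667 to 18.2 ± 0.983 CPM, whereas E2f2 rose from 4.92 ± 0.321 to 7.11 ± 0.349 CPM. The call of Tfdp2 ended on TPM (adjusted p up to 0.113 in limma).

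Of 26 E2F targets of the G1/S transition, 7 rose and 3 fell (12 and 2 with upper-quartile scaling, 12 and 2 on TPM), with a median of 0.03. Tyms, a nucleotide synthesis gene, rose from 112 ± 0.686 to 125 ± 1.13 CPM and Rfc4, of the clamp loader, from 38.01 ± 1.76 to 42.3 ± 1.49 CPM, while Mybl2 fell from 66.6 ± 1.66 to 55.8 ± 1.55 CPM. Among 16 mitosis genes 3 rose and 4 fell (5 and 2 with upper-quartile scaling, 5 and 2 on TPM), and 5 rose without LPL overexpression replicate 4. Mki67, a marker of cycling cells, rose from 909 ± 22.4 to 980.4 ± 19.0 CPM and Aurkb from 109 ± 0.873 to 117 ± 2.04 CPM. Aurka, a mitotic kinase gene, fell from 143 ± 0.813 to 132 ± 2.70 CPM and Cenpf from 323 ± 5.10 to 297 ± 13.0 CPM. The call of Cenpf ended on TPM (adjusted p up to 0.0508 in limma).

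**Figure D5:**
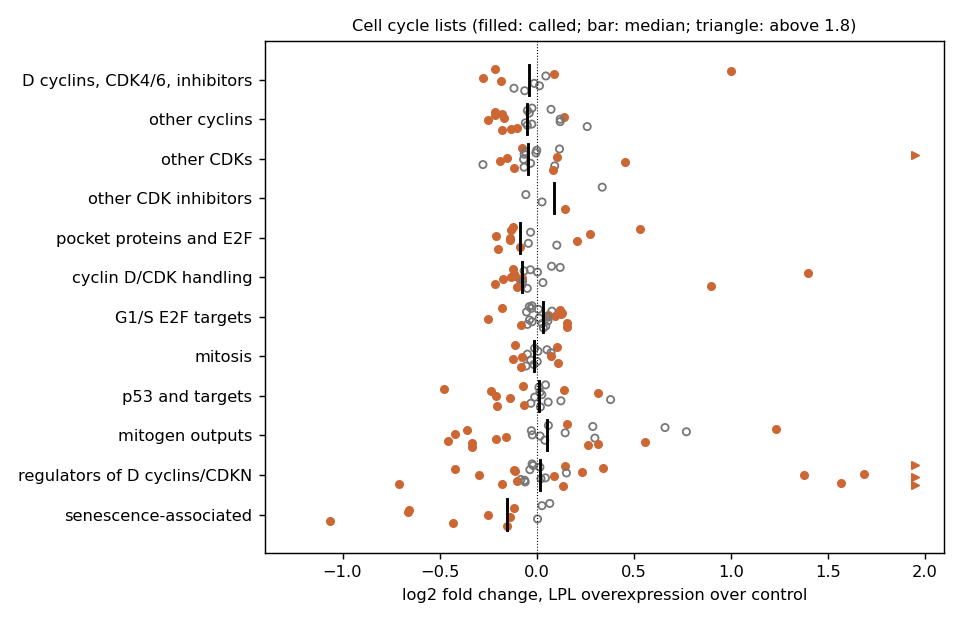
Log2 fold change of every tested gene of 12 lists, filled where called, with a bar at each list's median and triangles for values above 1.8. Ccnd2 stands apart in the top row at 1.00, and the senescence-associated list has no filled point above 0.

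Genes for chaperones, ubiquitin ligases, kinases and other proteins that handle cyclin D or cyclin-dependent kinases are another level of control. Of 20 such genes, 2 rose and 9 fell (4 and 5 with upper-quartile scaling, 3 and 2 on TPM), with a median of -0.07. The number that fell was 5 without control replicate 2, control replicate 3 or LPL overexpression replicate 3. Cryab, the gene of a small heat shock protein that acts with Fbxo4 in cyclin D1 turnover, rose from 10.3 ± 0.954 to 27.1 ± 1.26 CPM and Usp2, a deubiquitinase gene, from 3.59 ± 0.280 to 6.70 ± 0.155 CPM. Skp2, the ubiquitin ligase subunit that marks p27 for breakdown, fell from 96.8 ± 0.285 to 83.3 ± 1.19 CPM and Gsk3b, a kinase that phosphorylates cyclin D1, from 123 ± 1.77 to 109 ± 3.91 CPM.

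Among p53 and its targets apart from Cdkn1a, 2 rose and 7 fell of 19 tested, with a median of 0.01. These counts were 2 and 5 with upper-quartile scaling and on TPM, and 1 and 5 with DESeq2. With 1 library left out, between 1 and 3 rose and between 5 and 6 fell. The number that rose was 1 without control replicate 3 or LPL overexpression replicate 2. Mdm2, the p53 ubiquitin ligase gene, fell from 281 ± 8.78 to 243 ± 11.2 CPM (-0.21 on the log2 scale, SE 0.03, edgeR adjusted p = 1.26e-07). Btg2, an antiproliferative gene, fell from 34.7 ± 0.605 to 24.9 ± 1.39 CPM and Eda2r, a receptor gene, from 249.8 ± 3.64 to 212 ± 4.06 CPM. The death receptor gene Fas rose from 4.00 ± 0.437 to 4.97 ± 0.415 CPM, though DESeq2 and the fits without control replicate 3 or LPL overexpression replicate 2 did not call it (adjusted p up to 0.0989). Trp53 was at 254 ± 1.40 CPM in the controls and 243 ± 6.15 CPM in LPL overexpression (adjusted p = 0.0324 in edgeR), a call that ended in 11 of the 14 other settings, with adjusted p up to 0.246.

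Upstream, outputs of mitogen signalling went both ways, with 5 of 22 higher and 7 lower. Without control replicate 2 or control replicate 3, 3 were higher. Phlda1 rose from 13.5 ± 1.14 to 19.9 ± 1.14 CPM and Dusp4, an ERK phosphatase gene, from 179 ± 1.94 to 199 ± 7.05 CPM. Fosl1, an AP-1 subunit gene, fell from 196 ± 7.12 to 147 ± 3.62 CPM and Mycn from 3.58 ± 0.0404 to 2.61 ± 0.456 CPM. Myc was at 91.4 ± 2.23 CPM in the controls and 94.1 ± 1.1002 CPM in LPL overexpression (adjusted p = 0.286 in edgeR) and was called higher on TPM.

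Of 28 transcriptional regulators of D cyclin and inhibitor genes, 11 rose and 7 fell (11 and 5 with upper-quartile scaling, 11 and 3 on TPM). Tfap2a had 2 control reads and 803 reads in LPL overexpression, a ratio of 302 (95% Clopper-Pearson counting interval 83.4 to 2500.3). Mitf, the master regulator of pigment cells, rose from 2.41 ± 0.446 to 44.4 ± 0.896 CPM. Tbx3, a repressor of the Arf transcript in other cells, fell from 24.2 ± 0.689 to 14.8 ± 0.461 CPM and Ets2 from 152 ± 8.47 to 114 ± 4.42 CPM. Tbx2, a related repressor gene of the same list, rose from 4.38 ± 0.250 to 13.0 ± 1.33 CPM. Of 11 tested genes often associated with senescence, 8 fell and the other 3 did not pass, with a median of -0.15. Hmga2, a chromatin protein gene, fell from 557 ± 2.49 to 352 ± 11.7 CPM and Mmp3, a matrix protease gene, from 3.63 ± 0.394 to 1.72 ± 0.288 CPM.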

How the data were processed

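Reads were aligned with STAR to mm10 per the submitters' processing notes, and neither tool versions nor an annotation release is given in the sources used here. Per the labels, libraries were stranded total RNA. The deposited read counts per gene are raw and given for each orientation, and the sense (reverse) orientation was used. The authors' TPM values, with a sum of 1000000 in each of the 7 libraries, gave levels between genes. FPKM values that the authors deposited entered only an alternative for the D cyclin shares, as did counts per exonic kb, and a deposited score that was scaled to part of the genes was not used. TMM-scaled CPM was computed from the counts. The test was edgeR 4.0.16 (R 4.3.3), quasi-likelihood, filterByExpr, group as the only term, with Benjamini-Hochberg adjustment over 13639 genes. SE was taken from the fold change and its F statistic. Alternatives were DESeq2 1.42.0, upper-quartile factors, no filter, both orientations, limma 3.58.1 on log2(TPM + 0.5) and log2(TPM + 0.1), a replicate block and leaving out each library. On simulated counts for this comparison (13639 genes), 30% of 50 genes changed 1.1-fold and 84% of 50 changed 1.25-fold were recovered. The simulation changed 200 genes and gave 9 false calls. In the data 43.2% of genes were called, so these shares need not hold there.

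Members and lists were chosen with earlier results of these data known. Named genes are all members, 15 others taken whatever their result, and per list up to 2 rises and 2 falls among called genes with a mean of 2 CPM or more over the 7 libraries and groups that do not overlap. Cdh5, Vwf, Cldn5, Cdk15 and Tbx2 were added after their values were seen. Of the mural and fibroblast, blood, and islet and exocrine markers, 4, 1 and 2 were tested, of which 2, 1 and 1 were higher, among them Cd68 from 74.7 ± 3.03 to 98.7 ± 4.27 CPM. Of 5 neighbours of the Ink4 locus, 2 were tested and neither was called. Likeness is the root mean square difference of log2 CPM minus the row mean. Counting intervals cover counting error only.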

Additional observations from a re-analysis of the deposited data

Results flagged for a closer look

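Of 78 quantities checked over the 4 LPL overexpression libraries, 4 had 1 library far from the other 3, and in each it was LPL overexpression replicate 4. Chance flags about 1 in 20 such groups. Ccnd1 was at 2158 CPM there, against 2276 to 2282 CPM in the others. Cdk4 was at 393 CPM there, against 406 to 407 CPM in the others. Cdkn2b was at 19.8 CPM there, against 22.8 to 23.3 CPM in the others. Gsk3b, of the cyclin D handling list, was at 114 CPM there, against 106 to 107 CPM in the others. Without this library the log2 fold change of Ccnd1 was -0.19, that of Cdk4 was 0.07 and was then called, and that of Cdkn2b was -0.06.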

How the results depend on the processing

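Of 140 values of the 10 members under other settings, 122 kept their direction and their side of the threshold, 2 lost a call, 8 gained one and 8 changed sign. The sign changes were in Cdkn1b and Cdkn2a, which no setting called. The Cdkn1b log2 fold change was 0.0101 with upper-quartile factors, 0.0146 and 0.0147 on the TPM scales, and between -0.026 and 0.0134 with 1 library left out. The Cdkn2a log2 fold change was between -0.151 and 0.2277 with 1 library left out. Outside the family, the Ccne1 log2 fold change was between -0.0625 and 0.0104 with 1 library left out, and the Ccna2 log2 fold change was 0.0022 on both TPM scales. With 1 library left out, between 1 and 3 members were called higher, with 1 without control replicate 2 or LPL overexpression replicate 1. Between 3 and 5 were called lower, with 5 without LPL overexpression replicate 2, where Cdkn2b and Cdkn2c passed. The number of genes called was 4850 with DESeq2 and 5939 with upper-quartile factors. With the replicate block it was 5794, 5 members were called, and of the named genes Rb1 and Esam lost their calls. Deviations of same-numbered libraries had correlations of 0.03, -0.01 and 0.01 (over 10025 genes, which are not independent replicates). Those of differently numbered libraries ranged from -0.07 to 0.06. Whether the numbers pair libraries cannot be told from this measure. The cause of these changes was not tested. Cdkn2a had the fewest counts of the members, with 59 to 107 counts per library.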
